A study of Homo sapiens with 4 samples.

Results

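Epithelial-mesenchymal transition (EMT) is a switch of cell state in which epithelial cells lose E-cadherin junctions and take up vimentin and N-cadherin. The 10 genes described here were chosen by name as its core, out of 57879 genes listed. They comprise 6 transcription factors (SNAI1, SNAI2, ZEB1, ZEB2, TWIST1 and TWIST2), both cadherins of the switch (CDH1 and CDH2), the mesenchymal filament gene VIM and the epithelial surface gene EPCAM. RNAseq of T24, a human urinary bladder carcinoma line, covered 2 libraries of cells carrying an empty vector (EV) and 2 libraries of cells expressing the catalytic domain of the DNA demethylating enzyme TET1 (TET1-CD). According to the study's methods, the domain was expressed stably from a FLAG-tagged pCDH vector, and the labels call the RNA source of EV and TET1-CD libraries alike induced, without naming an inducer. Whether the cells were a pool or a clone, and whether the replicates came from separate cultures, is not given in the sources used here, so p-values measure only the spread between these libraries. The enzymatically inactive domain that the study also made is not among these libraries.

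The SNAI, ZEB and TWIST proteins bind E-box motifs in promoters of epithelial genes, among them CDH1, and repress them, and several also activate mesenchymal genes. ZEB1 and ZEB2 are in turn held down in epithelial cells by the miR-200 family of microRNAs, whose own genes are repressed by the ZEB proteins. CDH1 encodes E-cadherin, the adhesion molecule of epithelial junctions, and CDH2 encodes N-cadherin, its counterpart in mesenchymal and neural cells.

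The microRNAs of the miR-200 family are shown because their seeds (bases 2 to 8, in capitals) define the sites counted in the ZEB transcripts. The mature sequences were taken from RefSeq, and the 5 members fall into 2 seed groups that differ by 1 base.
hsa-miR-200b-3p: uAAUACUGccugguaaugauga
hsa-miR-200c-3p: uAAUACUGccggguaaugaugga
hsa-miR-429: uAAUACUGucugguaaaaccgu
hsa-miR-200a-3p: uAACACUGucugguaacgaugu
hsa-miR-141-3p: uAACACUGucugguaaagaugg

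The sequence after the stop codon was read from GRCh37, in the GENCODE release 44 transcript with the longest such end (ENST00000424869 for ZEB1, ENST00000627532 for ZEB2), and searched on the transcript strand for CAGTATT (matching the first 3 microRNAs) and CAGTGTT (matching the other two). ZEB1 held 9 matches in 2540 bases of its last exon, 6 of CAGTATT and 3 of CAGTGTT. ZEB2 also held 9 matches, 5 and 4 of the respective motifs, in an end of 5370 bases. Of 12447 genes with an annotated 3′ end, 34.8% held at least 1 match and 0.0643% held 9 or more. Among ends at least as long as their own, the share with 9 or more was 0.21% for ZEB1 and 0.638% for ZEB2. These are not the transcripts with most counts in these libraries. The transcript named ENST00000424869 in the files carried 1.62% to 6.2% of the counts of ZEB1, and ENST00000627532 is not among the ZEB2 transcripts of the files. In EV replicate 1, ENST00000424869 had 48.8 counts at 2.71 FPKM (fragments per length and depth), beside 889 counts at 8.08 FPKM for ENST00000320985. The files' model of ENST00000424869 is thus the shorter of these, and its counts cannot be assigned to the searched end. The leading ZEB1 transcript, ENST00000320985, holds 8 of the 9 matches in its annotated end. The leading ZEB2 transcript, ENST00000303660, ends 134 bases after the stop codon in release 44 and holds 0 of the 9. The files give it a longer genomic span (131989 bases against 130690), so its end in the authors' annotation is not known. Another ZEB2 transcript, ENST00000558170, carried 11.3% to 13.5% of the counts of ZEB2, and whether it holds matches was not examined. SNAI2 held 1 match, and SNAI1, CDH2, VIM and EPCAM held none. The first matches to CAGTATT in each ZEB gene, with 7 flanking bases on each side, are shown as examples, with the match in capitals.
ZEB1, chr10:31816561-31816567, plus strand, 3′ UTR in exon 9 of 9: atcttatCAGTATTatcactc
ZEB1, chr10:31816655-31816661, plus strand, 3′ UTR in exon 9 of 9: tccgcttCAGTATTttattat
ZEB2, chr2:145146620-145146626, minus strand, 3′ UTR in exon 10 of 10: catacatCAGTATTtttatta
ZEB2, chr2:145146557-145146563, minus strand, 3′ UTR in exon 10 of 10: aatgcatCAGTATTatgattc

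**Figure D1:**
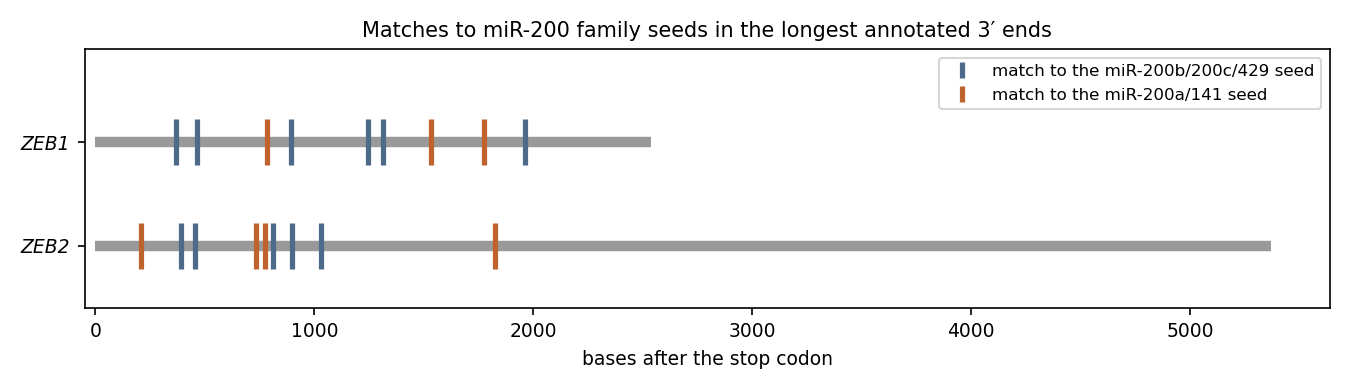
Positions of matches to the miR-200 seeds along the longest annotated 3′ ends of ZEB1 and ZEB2, in bases after the stop codon; grey bars are the ends and ticks are matches, coloured by seed group. Each gene holds 9 matches, which lie between 369 and 1964 bases after the stop codon in ZEB1 and between 208 and 1825 in ZEB2.

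The libraries do not measure mature microRNAs. The gene records of MIR200A, MIR200B, MIR200C, MIR141 and MIR429 were listed at 0 in all 4 libraries. A seed match is a description of the sequence and no measure of binding.

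TET1 itself had 111 and 83 counts in EV against 2939 and 3310 in TET1-CD libraries. Both groups thus carried what their labels say. A count here is an estimated number of fragments, summed over a gene's transcripts and rounded. Totals lay between 17442143 and 20295266 per library, and a floor of 3 counts, which covers counting error only, corresponds to 0.148 to 0.172 CPM (counts scaled to library size). Of all genes, 14573 had enough counts for a test, and TET1-CD was compared with EV by edgeR's quasi-likelihood test with Benjamini-Hochberg adjustment over all of them. A gene was called at an adjusted p under 0.05. Of the simple epithelial keratins, KRT8, KRT18 and KRT7 were abundant, with 10759 to 22638 counts each, whereas KRT19 had 66 to 169. Of 16 urothelial markers, 10 had no more than 6 counts in any library, and KRT5, KRT13, KRT20 and SNX31 were at 0 throughout.

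By level, VIM and CDH2 were high while EPCAM and CDH1 were low or near absent, in EV and TET1-CD cells alike. FPKM values, which are scaled to transcript length and so allow genes to be compared, were summed over each gene's transcripts. VIM was at 1692 and 1837 FPKM in EV and 1344 and 1374 FPKM in TET1-CD libraries, which placed it between rank 21 and rank 28 of the 14573 genes tested. CDH2 followed with 41.8 to 46.3 FPKM and SNAI2 with 17.2 to 20.7 FPKM. ZEB1 lay between 9.81 and 15.4 FPKM, so its lowest library was above the highest ZEB2 library, at 8.88 FPKM. EPCAM (1.69 to 2.67 FPKM) and SNAI1 (0.35 to 1.83 FPKM) overlapped in range and were the lowest genes with enough counts for a test. The order VIM, CDH2, SNAI2, ZEB1, ZEB2 held in each of the 4 libraries.

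CDH1 and both TWIST genes were below what could be tested. CDH1 had 1 and 0 counts in EV and 1 and 2 counts in TET1-CD libraries, all at or under the floor, so no fold is given. TWIST1 and TWIST2 were listed at 0 in all 4 libraries, which allows up to 3 counts in each. A fall of these 3 genes could not have been detected at this depth.

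Of the 7 genes tested, 3 were called, 1 higher and 2 lower in TET1-CD cells. Among all genes tested 19.7% were called, 10.0% higher and 9.61% lower. The largest of the members' changes was that of SNAI1, with a log2 fold change of 1.35, and ZEB2 and VIM fell by less than 2-fold. With a fold change of at least 2 required as well, 1 of the 7 remained, beside 3.77% of all genes. At an unadjusted p under 0.05 there were 4, beside 33.2% of all genes. DESeq2 called 2 (ZEB2 and VIM), beside 11.9% of all genes, and neither by 2-fold. The EV and TET1-CD libraries did not overlap for 4 of the 7, beside 61.0% of all genes tested. In such bulk samples, fewer cells that express a gene and less RNA of it per cell cannot be told apart.

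**Figure D2:**
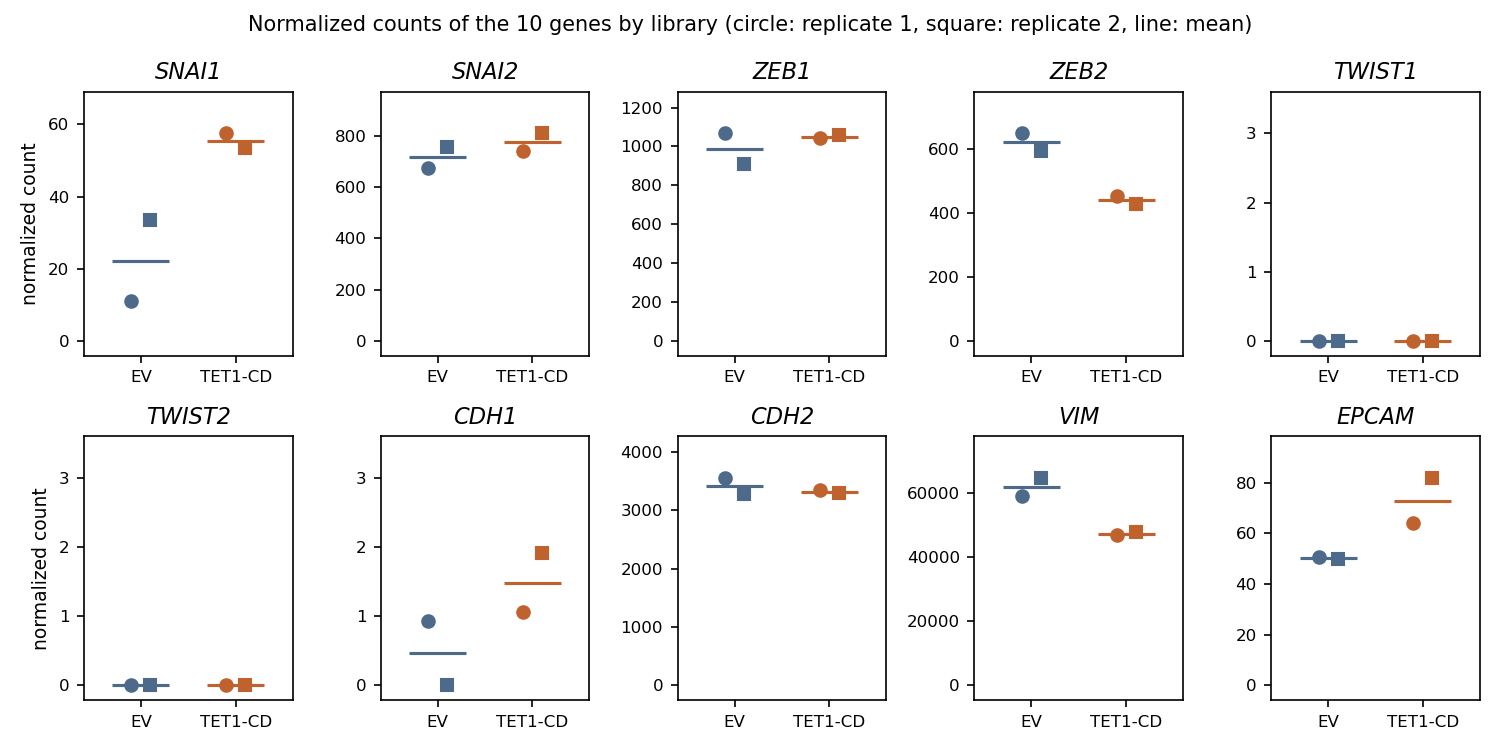
Normalized counts (TMM) of the 10 genes in each library, on linear axes that differ between panels; circles are replicate 1, squares replicate 2 and lines group means. SNAI1, EPCAM, ZEB2 and VIM are the tested genes whose EV and TET1-CD libraries do not overlap, while TWIST1 and TWIST2 lie at 0 and CDH1 at no more than 2 counts.

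Among the SNAI genes, SNAI1 rose and SNAI2 was not called. SNAI1 (ENSG00000124216, chromosome 20 from 48599536 to 48605423 of GRCh37, plus strand) encodes Snail, a zinc finger repressor of CDH1. It had 12 and 31 counts in EV against 54 and 56 in TET1-CD libraries. Both TET1-CD libraries lay above both EV libraries, and the EV libraries differed from each other more than the TET1-CD libraries did. Normalized counts were 22.3 ± 15.8 (EV) against 55.4 ± 2.92 (TET1-CD; SD, n = 2 for each), which is 2.55-fold (log2 fold change 1.35, standard error 0.40, adjusted p = 0.0397 from edgeR). The call was lost with any 1 of 3 libraries left out. Leaving out a TET1-CD library also lowered the share called among all genes. The estimate itself moved more with an EV library left out, to 2.31 without EV replicate 2. In fits with a library left out, the spread comes from the group that keeps 2 libraries, and the lone library is assumed to vary like them. Without EV replicate 1 the log2 fold change was 0.72 (edgeR adjusted p = 0.119), without TET1-CD replicate 1 it was 1.29 (adjusted p = 0.122) and without TET1-CD replicate 2 it was 1.40 (adjusted p = 0.0836). DESeq2 gave 1.33 with an adjusted p of 0.0743.

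SNAI2 (ENSG00000019549, chromosome 8 from 49830249 to 49834299, minus strand) encodes Slug, the related repressor. Its counts were 729 and 702 in EV against 697 and 849 in TET1-CD libraries. The groups overlapped, and the log2 fold change of 0.12 (standard error 0.08, edgeR adjusted p = 0.36) did not pass the test. On the FPKM scale, the level of SNAI2 was 47.8 and 18.2 times that of SNAI1 in EV libraries and 10.4 and 12.1 times in TET1-CD libraries. SNAI2 thus stayed the more abundant of the pair in each library.

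Of the ZEB genes, ZEB2 fell and ZEB1 was not called. Both encode zinc finger and homeodomain repressors that recruit CtBP. ZEB2 (ENSG00000169554, chromosome 2 from 145141648 to 145282147, minus strand) had 702 and 550 counts in EV against 424 and 449 in TET1-CD libraries. After normalization these were 621 ± 38.4 (EV) against 439 ± 16.7 (TET1-CD; SD, n = 2 for each), and the groups did not overlap. The change was 0.707-fold (log2 fold change -0.50, standard error 0.09, edgeR adjusted p = 0.00343). With each library left out in turn, under the same assumption, adjusted p-values were up to 0.0281.

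ZEB1 (ENSG00000148516, chromosome 10 from 31607424 to 31818742, plus strand) had 1156 and 841 counts in EV against 981 and 1111 in TET1-CD libraries. Both TET1-CD libraries lay between the EV libraries after normalization. The log2 fold change was 0.09 (standard error 0.08, edgeR adjusted p = 0.486). Its EV libraries decided its direction. Without EV replicate 1 it was 0.21 (adjusted p = 0.0412), and without EV replicate 2 it was -0.021 (adjusted p = 0.832). The log2 ratio of ZEB1 to ZEB2 in FPKM was 0.66 and 0.16 in EV and 0.91 and 1.71 in TET1-CD libraries. Transcript ENST00000424869, with 1.62% to 6.2% of the counts of ZEB1, weighs more in its summed FPKM. It had 2.71 and 0.88 FPKM in EV and 2.59 and 3.98 FPKM in TET1-CD libraries. For ZEB2, ENST00000431672 does the same, with 0.37 FPKM in TET1-CD replicate 2. Whether both genes changed differently was not tested.

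Of the cadherins, only CDH2 could be tested, and it was not called. CDH2 (ENSG00000170558, chromosome 18 from 25530930 to 25757410, minus strand) had 3859 and 3035 counts in EV against 3141 and 3469 in TET1-CD libraries. The normalized counts, 3418 ± 202 (EV) against 3323 ± 27.3 (TET1-CD; SD, n = 2 for each), overlapped. The log2 fold change was -0.04 (standard error 0.06, edgeR adjusted p = 0.673), and its sign turned to 0.016 without EV replicate 1. CDH1 (ENSG00000039068, chromosome 16 from 68771128 to 68869451, plus strand) stayed at or under the floor in both groups, at 0 to 0.09 FPKM beside 41.8 FPKM or more of CDH2.

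VIM, the most abundant of the 10, fell. It encodes vimentin, the intermediate filament protein of mesenchymal cells, and lies on chromosome 10 from 17270258 to 17279592, plus strand (ENSG00000026025). Its counts were 63997 and 59891 in EV against 43958 and 50115 in TET1-CD libraries. Normalized counts were 61840 ± 3941 (EV) against 47257 ± 673 (TET1-CD; SD, n = 2 for each), so the groups were separated by more than the spread within them. The change was 0.764-fold (log2 fold change -0.39, standard error 0.06, edgeR adjusted p = 0.00232). Without TET1-CD replicate 1 the log2 fold change was -0.37, with an adjusted p of 0.0661. DESeq2 gave -0.39 with an adjusted p of 1.68e-08.

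EPCAM (ENSG00000119888, chromosome 2 from 47572297 to 47614740, plus strand) encodes an epithelial adhesion protein of carcinomas. It had 55 and 46 counts in EV against 60 and 86 in TET1-CD libraries. Normalized counts were 50.2 ± 0.787 (EV) against 72.9 ± 12.8 (TET1-CD; SD, n = 2 for each), without overlap. The log2 fold change of 0.54 (standard error 0.21) was not called by edgeR (unadjusted p = 0.0299, adjusted p = 0.107). The level of VIM was 995 and 1038 times that of EPCAM in EV and 634 and 513 times in TET1-CD libraries, on the FPKM scale. Both TET1-CD ratios lay below both EV ratios, which follows from VIM being lower and EPCAM higher without overlap and adds no further evidence.

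**Figure D3:**
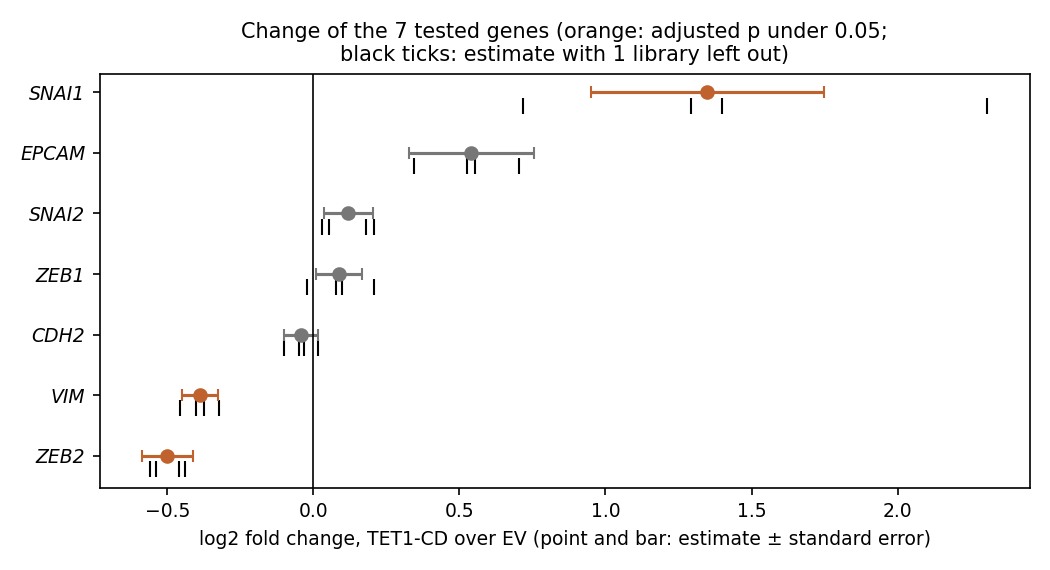
Log2 fold changes of TET1-CD over EV for the 7 tested genes; points are edgeR's estimates, bars are ± 1 standard error, orange marks an adjusted p under 0.05 and black ticks are the estimates with 1 library left out. SNAI1 has the widest range, from 0.72 to 2.31, whereas the ranges of ZEB2 (-0.56 to -0.44) and VIM (-0.46 to -0.32) stay below 0.

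Counts were also examined by transcript. The files list 93 transcripts of these genes, and 26 had enough counts for a test. By edgeR 0 of them were called after adjustment over all transcripts, beside 0.00231% of 43213 transcripts tested, and 4 had an unadjusted p under 0.05, beside 11.2%. DESeq2 called 2, both of VIM, beside 6.39% of all. The transcript ENST00000224237 carried between 98.7% and 99.1% of the counts of VIM, and its log2 fold change was -0.38 (standard error 0.06, edgeR adjusted p = 0.243). The leading ZEB2 transcript, ENST00000303660, carried 72.4% to 80.5% of that gene and changed by -0.40 on the log2 scale (standard error 0.12, edgeR adjusted p = 0.374). Both estimates were near those of the gene sums, whereas their adjusted p-values were not.

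Shares of other transcripts varied within groups. CDH2 transcript ENST00000399380 took 11.3% and 26% of the gene in EV and 17.7% and 27.6% in TET1-CD libraries. The ZEB2 transcript ENST00000431672 had 32.2 and 31.7 estimated counts in EV against 25.6 and 4.22 in TET1-CD libraries. At its FPKM of 2.73, 3.13, 2.52 and 0.37 in the same order, it weighs more in the summed FPKM of ZEB2 than in its counts. The ratio of mean FPKM of ZEB2 was -0.63 on the log2 scale, beside -0.50 from counts. SNAI1 has a single listed transcript.

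**Figure D4:**
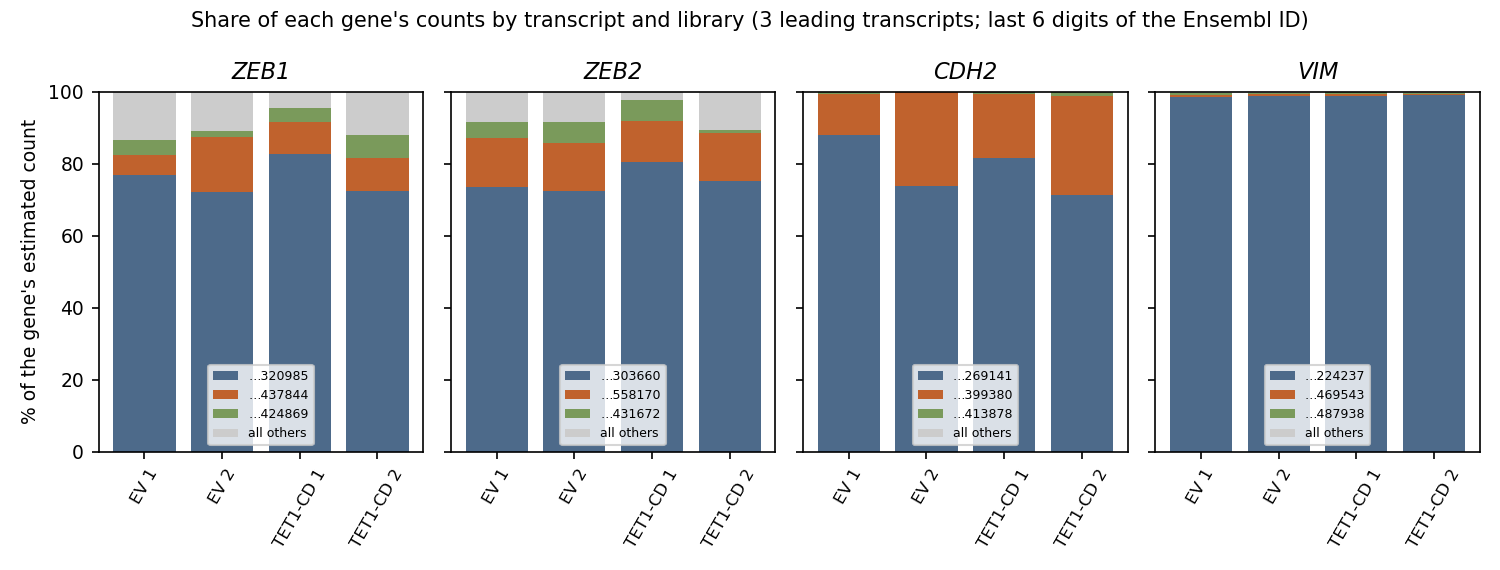
Percent of each gene's estimated counts assigned to its 3 leading transcripts and to all others, in each of the 4 libraries, for ZEB1, ZEB2, CDH2 and VIM; transcripts are named by the last 6 digits of their Ensembl identifiers. VIM is carried by 1 transcript in each library, and the second transcript of CDH2 ranges from 11.3% to 27.6% without following the groups.

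Genes that overlap members on the opposite strand were low. The strand setting of the authors' counting is not given in the sources used here, so reads of such pairs may be mixed. VIM-AS1 had 16 and 29 counts in EV against 12 and 13 in TET1-CD libraries, a small number beside the counts of VIM. ZEB1-AS1 had 72 to 101 counts, and ZEB2-AS1 had no more than 2. VIM-AS1 and ZEB1-AS1 were tested and not called, and ZEB2-AS1 had too few counts for a test. SNAI3-AS1, an antisense RNA that overlaps none of the members, was not called either. MIR205HG was listed at 0.

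The promoters of the falling genes VIM and ZEB2 are shown because TET1 acts on the cytosine of CpG sites. RefSeq's promoter table uses GRCh38.p14, another build than the files, and held 5 of the 10 genes with 12 promoters. The 250 bases before the start are printed with each CpG in capitals.
VIM, GRCh38.p14 chr10:17227991-17228240, plus strand: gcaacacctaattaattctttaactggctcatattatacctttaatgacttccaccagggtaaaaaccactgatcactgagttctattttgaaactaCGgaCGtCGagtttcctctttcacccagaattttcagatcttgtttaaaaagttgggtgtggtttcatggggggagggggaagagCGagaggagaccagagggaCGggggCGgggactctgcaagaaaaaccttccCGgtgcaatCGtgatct
ZEB2, GRCh38.p14 chr2:144520120-144520369, minus strand: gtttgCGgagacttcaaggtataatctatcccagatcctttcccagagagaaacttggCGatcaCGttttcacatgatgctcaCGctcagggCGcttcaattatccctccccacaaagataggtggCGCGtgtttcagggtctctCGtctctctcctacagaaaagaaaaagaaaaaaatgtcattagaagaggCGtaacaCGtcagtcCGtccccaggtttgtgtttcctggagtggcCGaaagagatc
VIM held 8 CpG sites and ZEB2 held 12, beside a median of 11 over 35116 promoters. The promoter of TWIST2, a gene without counts here, held 26, and 80.4% of promoters held fewer. The E-box bound by SNAI and ZEB proteins, searched as CACCTG and CAGGTG, which are the same motif on either strand, was not found in these 3 windows. It was found in 2 of 7 ZEB1 promoters and in 17.5% of all promoters. Methylation was not measured in these libraries.

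Regulators around the members were examined in 11 hand-written lists, some of which share genes. Of 217 list genes tested, 73 (33.6%) were called, beside 19.7% of all genes. Without TET1-CD replicate 1 there were 39 (18.0%, beside 8.10% of all genes), and without TET1-CD replicate 2 there were 41 (18.9%, beside 8.82%). The lists were chosen with earlier results of these data known, and nothing is read from these shares. The share called of each list is to be set beside the same 19.7%. Over all genes tested the median log2 fold change was near 0, with 7314 higher and 7259 lower.

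Of 18 other EMT transcription factors tested, 2 rose, 3 fell and 13 did not pass (27.8% called), with a median log2 fold change of -0.19. HMGA2, an architectural chromatin factor, had 5790 and 4926 counts in EV against 3360 and 3690 in TET1-CD libraries (log2 fold change -0.59, standard error 0.05, edgeR adjusted p = 5.57e-05). TCF3, which encodes the E-box binding protein E2A, fell by 0.36 on the log2 scale. ID3, an inhibitor of such basic helix-loop-helix factors, rose by a log2 fold change of 0.62, and TCF4 by 0.34.

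Regulators of the epithelial state moved both ways, 3 higher and 3 lower of 10 tested (60% called). EHF, an epithelial ETS factor, showed the largest of these changes, from EV counts of 125 and 111 to TET1-CD counts of 32 and 22 (log2 fold change -2.10, standard error 0.23, edgeR adjusted p = 2.77e-04). ELF3, of the same family, fell by 0.54 and KLF4 fell by 0.57 on the log2 scale. GATA3, a luminal urothelial factor, rose from 19 counts in both EV libraries to 46 and 44 (log2 fold change 1.25, standard error 0.30, edgeR adjusted p = 0.0163), and KLF5 rose by 0.31.

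Among 32 epithelial adhesion and polarity genes tested, 7 rose, 4 fell and 21 did not pass (34.4% called), and the median was 0.01. The tight junction gene CLDN4 rose from 28 and 25 counts to 63 and 75 (log2 fold change 1.39, edgeR adjusted p = 0.00338). CLDN7, of the same family, had 3 counts in each EV library and 16 and 24 in TET1-CD libraries. The desmosomal gene PKP3 fell by 0.49 on the log2 scale. KRT7 rose by 0.34. The summed level of the 16 urothelial markers moved alongside, from 966 and 978 CPM in EV to 1219 and 1230 in TET1-CD libraries, but KRT7 alone made up 94.2% to 95.1% of that sum, and ELF3, also on that list, fell.

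Mesenchymal genes were called in both directions, 61.5% of those tested beside 19.7% of all genes. Of 39 tested, 15 rose, 9 fell and 15 did not pass, and the median was 0.17. TGFBI, an extracellular matrix protein induced by TGF-beta, rose from 322 and 280 counts to 1208 and 1263 (log2 fold change 2.05, standard error 0.08, edgeR adjusted p = 1.33e-07). The actin-binding gene TAGLN rose by 1.24 and FST, an activin antagonist, by 1.29 on the same scale. The collagen gene COL6A3 rose from 5 and 4 counts to 66 and 82, and COL5A1 had 1 and 0 counts in EV against 44 and 48 in TET1-CD libraries. VIM thus fell while these genes rose in the same libraries. Fibroblast markers summed to 5.26 and 5.53 CPM in EV and 17.2 and 18.1 in TET1-CD libraries, and 7 of their 9 genes had no more than 6 counts in any library. The defining markers DCN, LUM, PDGFRA and FAP had at most 4 counts, and COL1A1, with 88 and 70 counts in EV against 266 and 314 in TET1-CD libraries, made up most of the sum. Leukocyte markers summed to 7.07 and 11 CPM in EV and 14.6 and 15.6 in TET1-CD libraries, and LAPTM5 made up 72.7% to 94.2% of the sum. ITGAM, on the same list, fell from 22 and 29 counts to 3 and 8, and PTPRC, the pan-leukocyte CD45 gene, had no more than 2 counts.

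**Figure D5:**
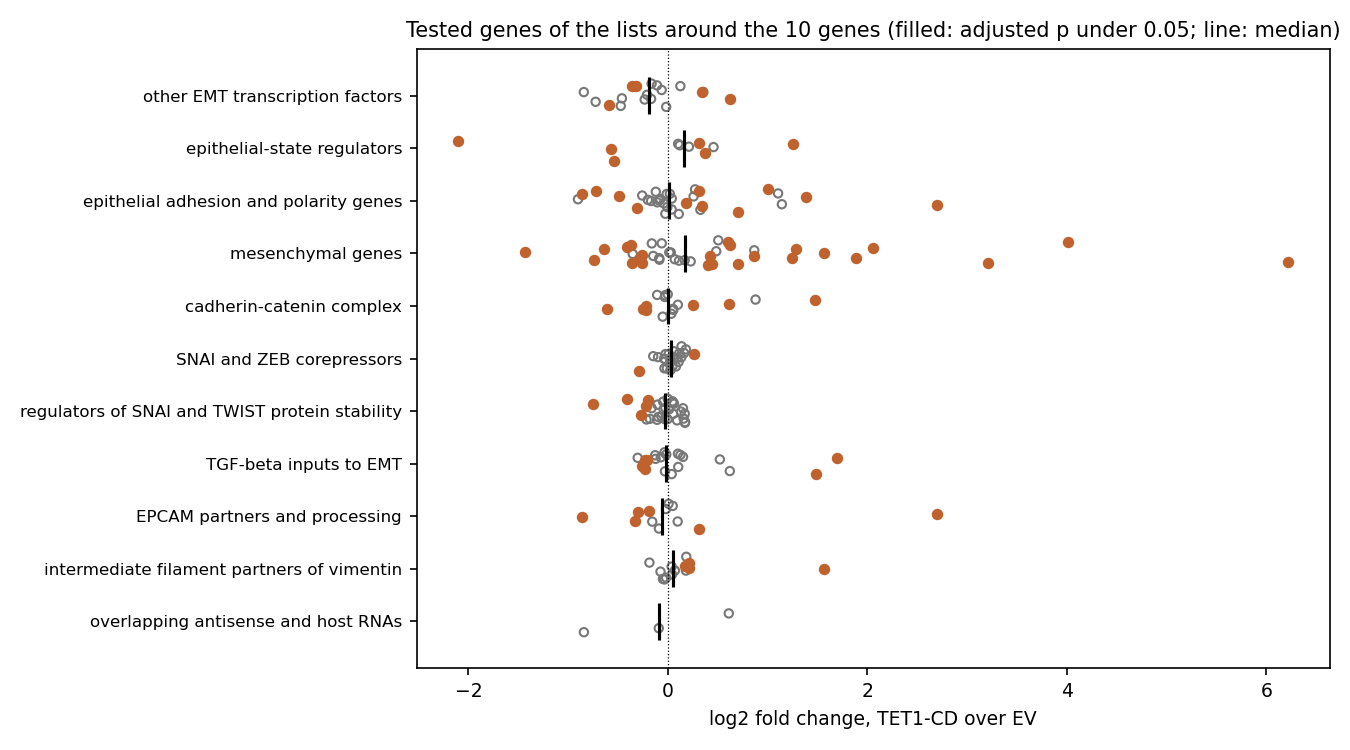
Log2 fold changes of TET1-CD over EV for the tested genes of the 11 lists, 1 point per gene; filled orange points have an adjusted p under 0.05 and black lines are list medians. Mesenchymal genes spread widest, with 15 called higher and 9 lower, while 2 of 25 corepressors were called; the farthest point, COL5A1, has 1 and 0 counts in EV and its fitted value is no measure of size.

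In the cadherin-catenin complex, 3 of 17 genes tested rose and 4 fell (41.2% called), with a median near 0. The nectin gene PVRL1 rose from 153 and 96 counts to 338 and 344 (log2 fold change 1.48, standard error 0.15, edgeR adjusted p = 1.22e-04). The classical cadherin CDH4 (R-cadherin) rose by 0.61, and CDH24 fell by 0.61 on the log2 scale. VCL, which encodes the actin linker vinculin, rose by 0.25, and MLLT4, which encodes afadin, fell by 0.25.

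Corepressors that SNAI and ZEB proteins recruit were mostly not called, with 1 higher and 1 lower of 25 (8% called). DNMT1, the maintenance DNA methyltransferase, rose by 0.27 and the histone methyltransferase gene EHMT2 fell by 0.29 on the log2 scale. PRMT5, next in order of p, had a log2 fold change of 0.16 (edgeR adjusted p = 0.0672). Of 31 regulators of SNAI and TWIST protein stability, 5 fell and none rose at an adjusted p under 0.05 by edgeR (16.1% called), a share near that of all genes. These were MDM2, an E3 ubiquitin ligase, with 3904 and 2969 counts in EV against 1952 and 2077 in TET1-CD libraries (log2 fold change -0.75, edgeR adjusted p = 6.58e-05), SPSB3 (-0.41), the phosphatase genes CTDSP2 (-0.27) and CTDSP1 (-0.20), and the kinase gene GSK3B (-0.22). The list holds factors that stabilize and factors that destabilize these proteins, and protein levels were not measured.

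TGF-beta inputs to EMT gave 2 genes higher and 4 lower of 20 tested (30% called). The ligand gene TGFB2 rose from 126 and 122 counts to 362 and 325 (log2 fold change 1.49, standard error 0.14, edgeR adjusted p = 9.19e-05). LTBP1, which binds latent TGF-beta, rose from 12 counts in each EV library to 44 and 33. The receptor gene TGFBR2 fell by 0.26, and SKIL and SMURF2, both negative regulators of the pathway, each fell by 0.23 on the log2 scale.

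Among 12 partners and processing factors of EPCAM, 2 rose and 4 fell (50% called). ADAM17, the protease that sheds its extracellular part, fell by 0.33, and the tetraspanin gene CD9 fell by 0.30 on the log2 scale. FHL2, a partner of the EPCAM intracellular domain, rose by 0.32. Of 14 filament genes and partners of vimentin, 4 rose and none fell at an adjusted p under 0.05 by edgeR (28.6% called). NES, which encodes the filament protein nestin, rose from 57 and 46 counts to 139 and 164 (log2 fold change 1.57, standard error 0.16, edgeR adjusted p = 1.63e-04). PLK1 and AURKB, kinases that phosphorylate vimentin in mitosis, each rose by 0.21, and the cytolinker gene PLEC rose by 0.17.

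The genes whose pattern over the 4 libraries was most like that of VIM were GABPB2, HOXB13 and HERPUD1, at Euclidean distances of 0.0246, 0.0246 and 0.0261 between centred log2 CPM. They were the nearest of 12528 protein-coding genes compared. GABPB2 had 338 and 313 counts in EV against 233 and 260 in TET1-CD libraries, and its log2 fold change was -0.39.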

How the data were processed

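Total RNA of T24 cells was sequenced after poly(A) selection or rRNA removal. The authors deposited expected counts, estimated fragments per transcript that need not be whole, and FPKM values (fragments per length and depth) for 195700 transcripts. The submitters' processing notes name hg19, cutadapt 1.9.1, HISAT2 2.0.1, HTSeq 0.6.1 and DESeq2. The tool behind the estimated counts and the annotation release are not given in the sources used here.

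Deposited counts were summed per gene and rounded. The groups were compared with edgeR 4.0.16 in R 4.3.3 (TMM, filterByExpr, glmQLFit, glmQLFTest, no block), checked on simulated data. Standard errors were derived from the log2 fold change and F. Alternatives were DESeq2 1.42.0, limma-voom 3.58.1, other normalizations and filters, a replicate block and the omission of each library. FPKM ratios used a pseudocount of 0.01. The members, lists and tests were chosen with earlier results of these data known. Named genes are all 10 members and, per list, up to 3 genes with the smallest p and up to 2 with the largest change among those called. For CLDN7 and COL5A1, at or under 3 counts in EV, counts are given in place of a fold. Some genes that this rule names are not reported here.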

Additional observations from a re-analysis of the deposited data

How the results depend on the processing

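The count of 3 called members was 2 with DESeq2 and 1 to 3 with a library left out. The member with a fold change of at least 2 was lost with DESeq2, where 0 remained, and the count was 0 to 1 with a library left out. The count of 73 list genes was 39 to 90 with a library left out. For transcripts, DESeq2 called 2 where edgeR called 0, and 0 were called with any library left out. With a library left out, ZEB1 ranged from -0.021 (without EV replicate 2) to 0.21 (without EV replicate 1, called at an adjusted p of 0.0412 by edgeR) and CDH2 from -0.10 (without EV replicate 2) to 0.016 (without EV replicate 1, not called). The ratio of mean FPKM gave ZEB1 0.23 and CDH2 0.03 on the log2 scale. ZEB2 lay between -0.63 and -0.44 and VIM between -0.46 and -0.32 over 12 alternatives each, and SNAI2 and EPCAM were called under none of theirs. The causes were not tested. With a replicate block, 3 members and 78 list genes were called, beside 22.2% of all genes, and the block changed no member's call (SNAI1 1.38, adjusted p = 0.0083 by edgeR). Deviations of same-numbered libraries correlated at 0.0071 over 14573 genes. A correlation over all genes cannot show whether same-numbered libraries shared a culture or a batch, since such an effect could touch few genes. The ratio of CDH2 to CDH1 was not formed, since CDH1 lay at or under 3 counts. With a library left out, the spread comes from the group that keeps 2. With 2 libraries a group, edgeR borrows each gene's spread from other genes, and SNAI1, EPCAM and CDH1 are limited by depth.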
